A study of Homo sapiens with 10 samples.

Results

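The genes described here lie on the part of the long arm of human chromosome 8 nearest the centromere. They were chosen by position: every probe set that the platform annotation gives 1 symbol and whose gene starts from 45 Mb to below 100 Mb on chromosome 8 of assembly GRCh38.p14, leaving out LYN, PRKDC, NBN, CA1, CA2, CA3 and CA8. This gave 115 probe sets of 89 genes, of 10943 probe sets of 8226 genes with 1 symbol on the array. The interval was singled out after chromosome 8 genes had been seen to be lower in this same comparison, so the counts below describe the interval and are not evidence that it stands apart. Affymetrix arrays compared a human chronic myeloid leukaemia (CML) line sensitive to cyclophosphamide, an alkylating drug, with a subline resistant to it, 5 arrays for each. Both groups were grown in culture medium, and the labels give neither the name of the line nor how resistance was raised. The labels do not state whether the 5 arrays of a group stand for separate cultures, and p-values therefore reflect only the spread among these arrays, possibly technical. The arrays measure RNA, and a lower signal from fewer cells that express a gene cannot be told apart from less RNA per cell.

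Genes that share a stretch of a chromosome need not share a function. The interval holds genes of very different kinds: housekeeping genes for ribosomes, the proton pump, the respiratory chain and the ubiquitin system, cell cycle genes such as MCM4 and CCNE2, transcription factors of particular lineages such as SNAI2, EYA1 and RUNX1T1, and tissue-specific genes such as CRH, CALB1 and CYP7A1. Genes of the last kinds are mostly silent in blood cells, whereas the housekeeping genes are transcribed in nearly every cell. RUNX1T1 is known in leukaemia as the partner of RUNX1 in a fusion gene.

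Most genes of the interval that gave a clear signal were lower in resistant cells. Of the 89 genes, 33 fell, 1 rose and 55 were not called, where a gene is called at an adjusted p under 0.05 in limma (Benjamini-Hochberg over all 12558 probe sets) and is represented by whichever of its probe sets was brightest on average. Among all 8226 genes 3.46% were called lower and 4.94% higher. On every resistant array 35 members had less signal than on any sensitive array (background 4.19%), and 3 had more on every resistant array than on any sensitive one (background 5.69%). Counted by probe sets, 37 of 115 were called lower and 3 higher, against 2.99% and 4.42% of all probe sets. For 40 of the 115 all resistant arrays were below all sensitive ones (background 3.56%) and for 4 all were above (background 4.94%). Differences are resistant minus sensitive on the scale of log2(signal + 114.8), where the added pseudocount shrinks the change of dim genes. The median difference over all 89 members was -0.56 (quartiles -0.98 and -0.03), beside 0.03 over all genes measured.

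Many members gave little signal. The limit of detection used here is the 95th percentile of 32 control probe sets without a human target, which lay between 319.7 and 739.8 on the 10 arrays. No array was above the limit for 25 members and all 10 arrays were above it for 45. For the 52 members whose mean signal over all 10 arrays exceeded the median limit of 499.6, the median difference was -0.86 (quartiles -1.25 and -0.63). Of the 52 differences 49 were negative, against 46.5% among all 5081 genes above the same level. Of these 52 genes 32 fell, 1 rose and 19 were not called, where 5.1% and 6.57% of all 5081 genes above the same level were called lower and higher. On the linear scale, the mean resistant signal divided by the mean sensitive signal had a median of 0.535. It lay between 0.4 and 0.7 for 29 of the 52 genes, below 0.4 for 12, between 0.7 and 1 for 8 and above 1 for 3.

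**Figure D1:**
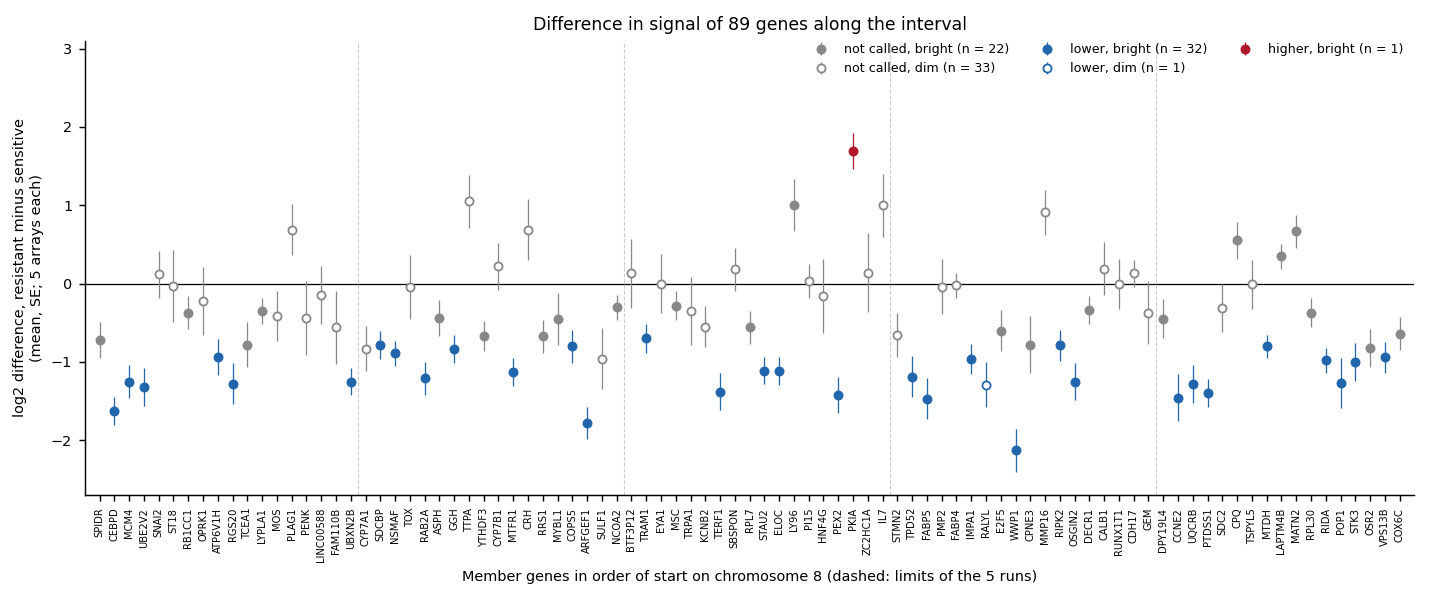
Log2 difference (resistant minus sensitive, mean with SE, 5 arrays each) of the 89 genes in the order of their starts on chromosome 8; blue marks genes called lower, red the gene called higher, grey those not called, and open points dim genes (above the limit in fewer than 3 arrays of either group). Lower calls occur from the first genes to the last, dim genes scatter around 0, and PKIA is the single gene called higher.

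The lowered genes were spread along the whole interval, where 3.46% of all 8226 genes were called lower. When the members were divided in order into 5 runs, 6 of 18 genes from SPIDR to UBXN2B fell, 7 of 18 from CYP7A1 to NCOA2, 5 of 18 from BTF3P12 to IL7, 7 of 18 from STMN2 to GEM and 8 of 17 from DPY19L4 to COX6C. For genes whose mean signal exceeded the limit the medians of these runs were -1.09 (n = 10), -0.80 (n = 11), -0.90 (n = 8), -0.96 (n = 9) and -0.88 (n = 14). The plot by gene order shows that each run holds called and uncalled genes side by side. At the first edge, the genes just outside were CHRNA6, a nicotinic receptor subunit, with a difference of -2.24, and FNTA, a farnesyltransferase subunit, with 0.06. Just inside lay SPIDR with -0.72 and CEBPD with -1.63. At the far edge the last members were VPS13B with -0.94 and COX6C with -0.64, followed outside by POLR2K with -0.35 and SPAG1 with -0.50.

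The 8 largest falls among members above the limit were those of WWP1, ARFGEF1, CEBPD, FABP5, CCNE2, PEX2, PTDSS1 and TERF1. WWP1 encodes a HECT-type ubiquitin ligase. Its signal was 12521, 11121, 7176, 4794 and 6619 on the sensitive arrays (in the order of replicates 1 to 5) and 1363, 1883, 1418, 2402 and 1734 on the resistant arrays. All resistant arrays were below all sensitive ones, and sensitive replicates 1 and 2 stood highest. The group means were 8446 ± 3242 and 1760 ± 419.3 (SD, n = 5), a log2 difference of -2.13 (SE 0.28, adjusted p = 0.000362, limma).

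ARFGEF1 encodes an exchange factor that activates ARF GTPases at the Golgi. Its sensitive signals were 17986, 17700, 15178, 11071 and 11896, and its resistant signals 3792, 5341, 3623, 3603 and 4577. The groups were separated by more than the range of the resistant arrays, with a difference of -1.78 (SE 0.21, adjusted p = 0.000147). CEBPD encodes C/EBP delta, a transcription factor of the family that directs myeloid differentiation. It gave 15018, 14612, 10375, 15343 and 12648 on sensitive arrays and 4768, 4887, 3822, 3636 and 4380 on resistant ones. The groups did not overlap and each was tight, with means of 13599 ± 2084 and 4299 ± 556.6 (difference -1.63, SE 0.18, adjusted p = 0.000102).

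FABP5 encodes a fatty acid-binding protein of the cytosol. Its signals were 3577, 5084, 2448, 4134 and 2193 in sensitive and 1148, 949.4, 1495, 1356 and 807.2 in resistant arrays. Every resistant array was lower, although sensitive replicates 3 and 5 lay well under the other three (difference -1.47, SE 0.26, adjusted p = 0.00373). CCNE2 encodes cyclin E2, which activates CDK2 at entry into S phase. It gave 7142, 8609, 11330, 4400 and 4898 in sensitive and 2255, 3190, 3613, 1879 and 1678 in resistant arrays. Sensitive arrays varied widely, and the lowest of them still exceeded the highest resistant array (difference -1.46, SE 0.30, adjusted p = 0.00988).

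PEX2 encodes a ubiquitin ligase of the peroxisome membrane that is needed for protein import. Its signals were 7666, 9122, 6014, 5142 and 7101 in sensitive and 2384, 3678, 1635, 2545 and 2657 in resistant arrays, which did not overlap (difference -1.42, SE 0.23, adjusted p = 0.00233). PTDSS1 encodes a phosphatidylserine synthase. It measured 74785, 81301, 78015, 55062 and 59035 in sensitive and 29948, 27444, 24202, 25970 and 22750 in resistant arrays. Sensitive replicates 4 and 5 were the lowest of their group, and all 5 resistant arrays lay far below them (difference -1.40, SE 0.18, adjusted p = 0.000332). TERF1 encodes TRF1, a protein that binds telomere repeats. Its brightest probe set gave 24178, 20504, 18413, 17234 and 10079 in sensitive and 7426, 5265, 7251, 6391 and 6908 in resistant arrays. Sensitive replicate 5 lay below the rest of its group and above all resistant arrays (difference -1.38, SE 0.24, adjusted p = 0.00292).

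**Figure D2:**
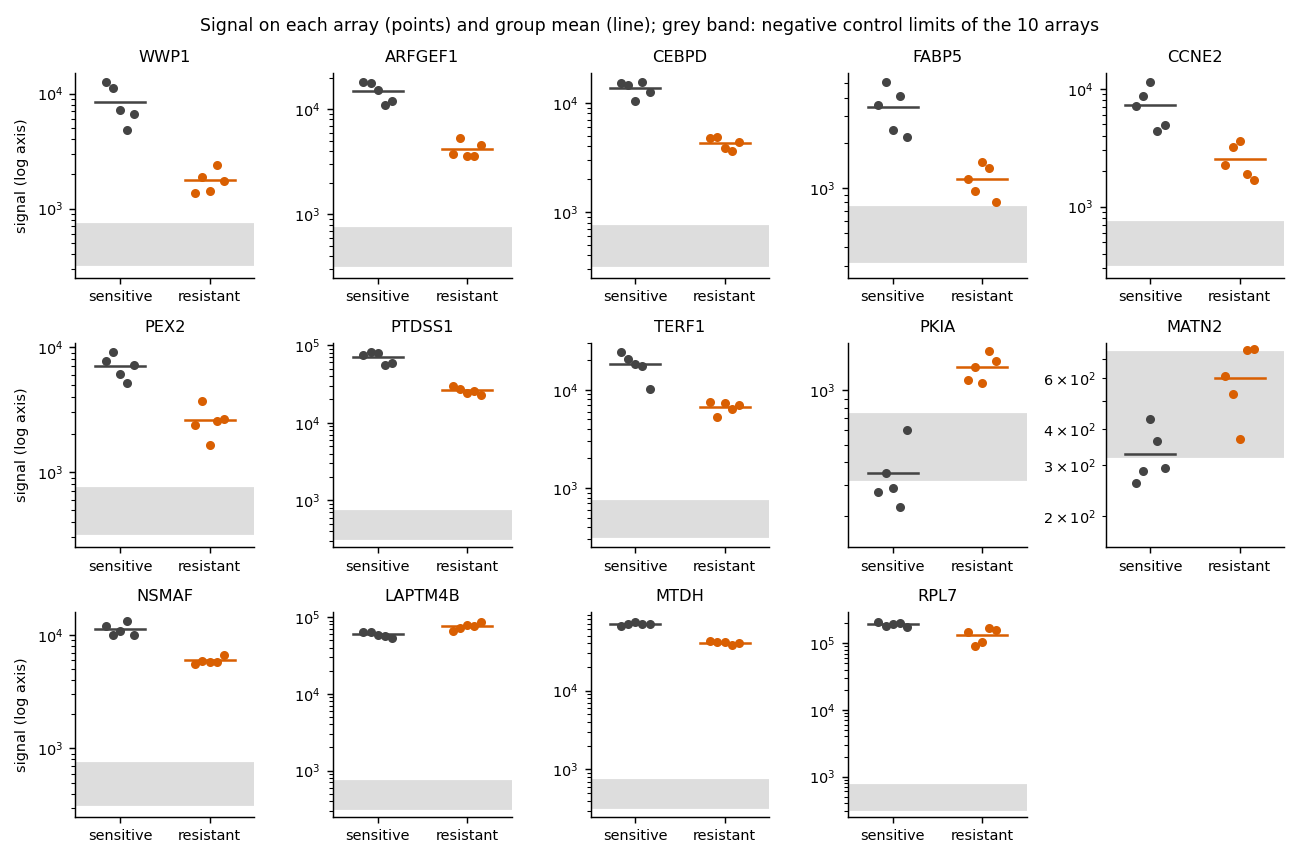
Signal (log axis) on each of the 5 sensitive and 5 resistant arrays, with the group mean as a line, for the 8 largest falls, the 1 called rise and the members with the highest mean signal of their function group; the grey band spans the negative control limits of the 10 arrays. The groups are separate for the 8 falls, PKIA sits in or below the band in sensitive arrays and above it in resistant arrays, and LAPTM4B is higher on every resistant array.

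Of 10 genes grouped under replication, the cell cycle and genome maintenance 5 fell and 0 rose (background 3.46% and 4.94% of all genes). Over all 8226 genes 3790 differences were negative, and over all 89 members 70. All 10 differences of this group were negative, with a median of -0.95. Among members with mean signal above the limit, 49 of 52 were negative, as were all 7 of this group, so a negative sign was not particular to it. The group also held TPD52, 1 of the 5 that fell, and GEM, neither of them a replication gene. Besides CCNE2 and TERF1, MCM4, a subunit of the helicase that unwinds DNA at replication forks, fell from 15929 ± 3396 to 6610 ± 1421 (difference -1.25, adjusted p = 0.00251). UBE2V2, which joins UBC13 in building ubiquitin chains used in tolerance of DNA damage, fell from 5871 ± 1754 to 2232 ± 431.3 (-1.32, adjusted p = 0.00421). TPD52, a protein overexpressed in several tumours, fell from 1937 ± 573 to 780.4 ± 221.1 (-1.19, adjusted p = 0.0132). SPIDR, a scaffold of homologous recombination, had a difference of -0.72 that was not called (adjusted p = 0.0947), except under 3 of 20 alternatives (lowest adjusted p = 0.0418). The cell cycle factor E2F5 had -0.60, and MYBL1, of which 3 sensitive arrays and 1 resistant array were above the limit, had -0.45. MOS and GEM were not above the limit on any array.

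Protein turnover, lysosome and vesicle genes gave a clear signal throughout, since all 14 had a mean above the limit, and 9 of them fell. Their median was -0.87, and 12 of 14 differences were negative. Of all 5081 genes above the same level 5.1% were called lower and 46.5% had negative differences. UBXN2B, a cofactor of the p97 segregase, fell from 5092 ± 634 to 2065 ± 237.1 (-1.25, adjusted p = 0.000456). RAB2A, a GTPase between endoplasmic reticulum and Golgi, fell from 10443 ± 2108 to 4467 ± 963.8 (-1.21, adjusted p = 0.00373). The pump subunit gene ATP6V1H fell by 0.94 and VPS13B, a lipid transfer protein of the Golgi, by 0.94. SDCBP, the scaffold syntenin, fell by 0.78, from 18101 ± 2563 to 10471 ± 1551. COPS5, which removes NEDD8 from cullins, fell by 0.80, from 38895 ± 5537 to 22706 ± 5567 (adjusted p = 0.0349), and that call was lost under 9 of 20 alternatives at adjusted p of up to 0.0963, among them without sensitive replicate 1, 2, 3 or 4 or resistant replicate 1, 4 or 5. The call of ATP6V1H was lost without sensitive replicate 1, 2 or 3 or resistant replicate 1, 2 or 5, at adjusted p of up to 0.0767. The call of SDCBP was lost under 3 of 20 alternatives, among them without sensitive replicate 1 (adjusted p = 0.0525) or 2 (adjusted p = 0.0561). RB1CC1, an autophagy scaffold, had -0.37, the depalmitoylase LYPLA1 -0.35 and CPNE3 -0.78, none of them called.

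In the group of mitochondrial and metabolic genes 7 of 15 fell and 0 rose (background 3.46% and 4.94% of all genes), with a median of -0.83. UQCRB, a subunit of respiratory complex III, gave 74667, 84536, 59927, 51585 and 40411 in sensitive and 35211, 21054, 20814, 26545 and 22220 in resistant arrays. The groups did not overlap, although the lowest sensitive and the highest resistant array lay close (difference -1.28, SE 0.24, adjusted p = 0.00554). COX6C, a subunit of cytochrome c oxidase, had 41959 ± 7796 and 26878 ± 5440 and was not called (-0.64, adjusted p = 0.0977), except under 4 of 20 alternatives, among them without sensitive replicate 3 (lowest adjusted p = 0.0349). MTFR1, a regulator of mitochondrial fission, fell from 7064 ± 1385 to 3115 ± 229.6 (-1.13). RIDA, an enzyme that clears reactive imines, fell from 35354 ± 3962 to 17874 ± 1887 (-0.98, adjusted p = 0.00263), and IMPA1, inositol monophosphatase, from 11265 ± 2046 to 5717 ± 947.4 (-0.96). GGH, which removes glutamates from folates and antifolates, fell from 12791 ± 1326 to 7215 ± 1268 (-0.83, adjusted p = 0.0132). DECR1, an enzyme of fatty acid oxidation, had -0.34 and ASPH -0.44, neither called. The cytochrome P450 genes CYP7A1 and CYP7B1 and the fatty acid-binding genes FABP4 and PMP2 were not above the limit on any array. CYP7A1 was called lower only without sensitive replicate 4 (adjusted p = 0.0225), of 18 alternatives.

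Of 9 genes of translation and RNA handling 4 fell and 0 rose (background 3.46% and 4.94% of all genes), with a median of -0.67. STAU2, an RNA-binding protein of transport granules, fell from 7534 ± 1053 to 3415 ± 277.3 (-1.11, adjusted p = 0.00116). POP1, a subunit of RNase P, fell by 1.27 with overlapping groups (sensitive 5795, 5843, 6941, 2173 and 4147, resistant 2792, 2223, 1918, 1572 and 1145), and sensitive replicate 4 lay among the resistant arrays. That call and the call of TRAM1, a translocon component that fell by 0.70, were lost under 9 and 10 of 20 alternatives, at adjusted p of up to 0.0867 and 0.12. For POP1 these included leaving out sensitive replicate 1, 2, 3 or 5 or resistant replicate 2, 3, 4 or 5, and for TRAM1 sensitive replicate 1, 2, 3 or 5 or resistant replicate 1, 2, 3 or 5. RALYL, an RNA-binding protein gene with 1 of 10 arrays above the limit, was called lower (-1.29, adjusted p = 0.0164). Its difference was -2.04 with a pseudocount of 16 and -0.58 with 500. The ribosomal protein gene RPL7 gave 210044, 181965, 190681, 198707 and 176339 in sensitive and 145705, 90520, 103017, 168234 and 158071 in resistant arrays. Its groups did not overlap, but the resistant arrays ranged so widely that it was not called (-0.56, SE 0.21, adjusted p = 0.152). RPL30, with overlapping groups, had -0.37 (adjusted p = 0.315). Both have processed pseudogenes that may share probe sequence, so their signals are uncertain. YTHDF3, a reader of RNA methylation, and RRS1, a ribosome assembly factor, each had -0.67 and groups that did not overlap, and neither was called (adjusted p = 0.0607 and 0.0893). YTHDF3 became called under 7 of 20 alternatives, among them without sensitive replicate 3 (lowest adjusted p = 0.0221), and RRS1 under 6, among them without resistant replicate 3 (lowest adjusted p = 0.0321).

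Of 15 transcription factor and chromatin genes 3 fell and 0 rose (background 3.46% and 4.94% of all genes). Their median was -0.16, and 6 were not above the limit on any array. Apart from CEBPD, the lower calls were ELOC and MTDH. ELOC, elongin C, an adaptor of cullin ubiquitin ligases, gave 79710, 76051, 82078, 58140 and 53302 in sensitive and 32915, 33962, 30557, 32945 and 27927 in resistant arrays, with no overlap (-1.12, SE 0.18, adjusted p = 0.00203). MTDH, also called AEG-1, gave 66154, 69676, 75142, 71149 and 71133 in sensitive and 42437, 41478, 41270, 37519 and 40589 in resistant arrays. Both groups were tight, at means of 70651 ± 3233 and 40659 ± 1876 (-0.80, SE 0.15, adjusted p = 0.00475). TCEA1, the elongation factor TFIIS, had 54026 ± 17912 and 30679 ± 9177 and was not called (-0.78, adjusted p = 0.151), except without sensitive replicate 5 (adjusted p = 0.0323). NCOA2, a coactivator of nuclear receptors, had -0.30 and was not called, although every resistant array (3117 to 4430) lay below every sensitive array (4433 to 4976). OSR2 had -0.82 (adjusted p = 0.0684) and became called under 8 of 20 alternatives, among them without sensitive replicate 3 (lowest adjusted p = 0.0289). SNAI2, ST18, TOX, HNF4G, TSPYL5 and the representative probe set of RUNX1T1 were not above the limit on any array.

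Among 11 signalling genes 5 fell and 1 rose (median -0.44, background 3.46% and 4.94% of all genes). NSMAF, an adaptor of the TNF receptor, gave 12145, 10029, 10777, 13192 and 9994 in sensitive and 5602, 5902, 5793, 5836 and 6720 in resistant arrays. The groups lay far apart (-0.89, SE 0.16, adjusted p = 0.00409). RGS20, which shortens signals of G proteins, fell from 2181 ± 858.8 to 792.7 ± 161.1 (-1.28, adjusted p = 0.00974), and OSGIN2 from 2285 ± 693.9 to 884.9 ± 239.1 (-1.25) in its brighter probe set. RIPK2, the kinase below NOD receptors, fell by 0.79 and STK3, a kinase of the Hippo pathway, by 1.00, calls that were lost under 8 and 5 of 20 alternatives (adjusted p of up to 0.0888 and 0.078). Those for RIPK2 included leaving out sensitive replicate 1, 2, 3 or 4 or resistant replicate 1, 2 or 4, and those for STK3 sensitive replicate 2 or resistant replicate 1, 2 or 3. The neuropeptide genes CRH and PENK and the opioid receptor gene OPRK1 were not above the limit on any array.

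Few members were higher in resistant cells. PKIA, which encodes an inhibitor of protein kinase A, gave 273, 347.9, 287.6, 225 and 604.9 in sensitive arrays, of which 1 was above the limit, and 1146, 1349, 1099, 1663 and 1452 in resistant arrays, all above it. It rose by 1.69 on the log2 scale (SE 0.23, adjusted p = 0.000463), and its other probe set, also called, was at least 1.32-fold higher, a bound from the mean log2 resistant signal against the limits of the sensitive arrays. LAPTM4B, a lysosomal membrane protein, gave 63087, 63598, 58486, 57121 and 53724 in sensitive and 66150, 71751, 77739, 75507 and 86970 in resistant arrays. Every resistant array was higher, by a small margin at the edges, and the difference of 0.35 was not called (SE 0.16, adjusted p = 0.264). CPQ, a secreted carboxypeptidase, had 0.55 and was not called (937.5 ± 348.6 and 1353 ± 101.2). LY96, the partner of TLR4 in binding endotoxin, averaged 257.5 ± 155.5 with no sensitive array above the limit and 581 ± 164.6 with 3 resistant arrays above it (1.00, adjusted p = 0.106, not called). IL7, a cytokine of lymphocyte growth, was called in 1 of its 2 probe sets (1.62, adjusted p = 0.021), but that probe set was above the limit on 2 resistant arrays and on 0 sensitive ones. For the mean of both, IL7 had 1.31 and was called (adjusted p = 0.0298). TTPA, the vitamin E transfer protein, had 1.05 with 2 resistant arrays above the limit and was not called (adjusted p = 0.0967), except without sensitive replicate 3 (adjusted p = 0.044).

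The group of channels, adhesion, matrix and structural genes gave almost no signal, and none of its 10 members was called by limma, with 2 lower and 2 higher at an unadjusted p under 0.05. Of all 8226 genes 694 were lower and 903 higher at that threshold. No array was above the limit for 9 of them, among them the channels TRPA1 and KCNB2, the cadherin CDH17, the protease MMP16 and the calcium buffer CALB1. MMP16 had 0.91 (adjusted p = 0.0985) and was called under 1 of 18 alternatives (adjusted p = 0.0419). Its other 2 probe sets had -0.20 and -0.05, and the mean of all 3 had 0.22 (adjusted p = 0.638, limma). The remaining gene, the matrix protein MATN2, gave 261, 287, 433, 365.5 and 294.6 with no sensitive array above the limit, and 608, 526.7, 371.1, 747.4 and 753.3 with 4 resistant arrays above it. The groups overlapped and it was not called (0.67, adjusted p = 0.0793), except under 3 of 19 alternatives, among them without resistant replicate 3 (lowest adjusted p = 0.0303). Of 5 genes in no function group 0 were called, and 0 had an unadjusted p under 0.05. DPY19L4, with a mean above the limit, had -0.45, and the long noncoding RNA LINC00588, the pseudogene BTF3P12, FAM110B and SBSPON were dim.

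Members that encode subunits of large complexes could be set beside subunits encoded elsewhere. As background for the counts below, 694 of all 8226 genes were lower and 903 higher at an unadjusted p under 0.05 (limma). MCM4 fell by 1.25, whereas MCM2, MCM3, MCM5, MCM6 and MCM7 on other chromosomes had differences of -0.07 to 0.13 and none was called (0 at an unadjusted p under 0.05). ELOC fell by 1.12 and ELOB, its partner in the elongin complex, had 0.03, while ELOA, CUL2, CUL5 and VHL lay between -0.22 and 0.21, none of them called, with 0 at an unadjusted p under 0.05. COPS5 fell by 0.80 and 5 other subunits of the COP9 signalosome had -0.36 to 0.43, none called, with 1 lower at an unadjusted p under 0.05. RPL7 and RPL30 had -0.56 and -0.37 and the 47 ribosomal protein genes of other chromosomes a median of 0.08 (range -0.24 to 0.32). Limma called none of the 49, and of the 47, 0 had an unadjusted p under 0.05. Probe sequence shared with pseudogenes was not checked for any of these 49 genes. RPL8, on chromosome 8 after the interval, had -0.34 and was not called (adjusted p = 0.312, limma). Of 13 genes on other chromosomes for the vacuolar proton pump (V-ATPase) 0 were called lower and ATP6V0E1 rose by 0.89 (median 0.00). At an unadjusted p under 0.05, 1 of these 13 was lower and 2 were higher. The lowest of them, ATP6V0B, had -0.55 and was not called. ATP6V1H of the interval fell by 0.94. On the rest of chromosome 8, ATP6V1C1, after the interval, fell by 1.17 and ATP6V1B2, before the interval, by 0.64. For complexes III and IV, 15 genes of other chromosomes had a median of -0.11, with 2 lower at an unadjusted p under 0.05. Of these 15 genes 1 was called, COX7A2, at -6.23. COX5A, on chromosome 15, had -0.81 and was not called (adjusted p = 0.0931, limma). UQCRB and COX6C of the interval had -1.28 and -0.64. CYC1, farther along chromosome 8, fell by 0.94. For fatty acid-binding proteins no comparison could be made, since the 5 measured genes on other chromosomes had mean signals under the limit. No mitochondrial ribosomal protein gene was measured on the interval, and 0 of 15 on other chromosomes were called, with 2 lower at an unadjusted p under 0.05. The differences between subunits were not tested against each other.

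**Figure D3:**
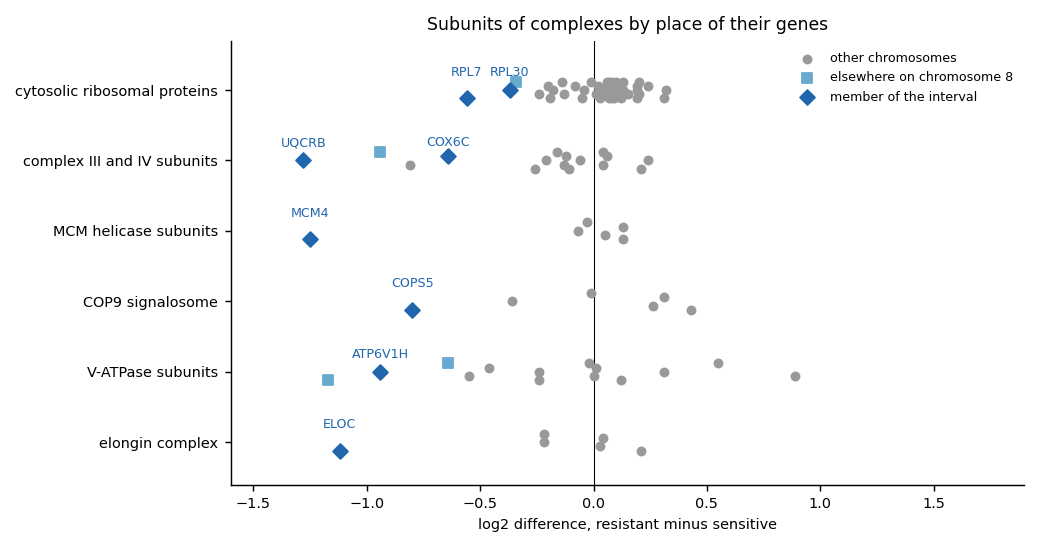
Log2 difference (resistant minus sensitive) of subunits with mean signal above the limit in 6 complexes; dark diamonds are members of the interval, light squares genes elsewhere on chromosome 8 and grey points genes of other chromosomes (vertical offsets only separate points; COX7A2 at -6.23 lies outside the axis). The members lie to the left of 0, as do the squares, and most grey points lie near 0.

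Of the members, 16 genes had several probe sets, which may share target sequence, so their agreement need not be independent. In 13 of them all probe sets had differences of 1 sign, and in 0 were probe sets called in both directions. The 3 probe sets of WWP1 all fell, with differences of -2.13, -1.79 and -0.92, the last from 744.9 ± 163.7 to a level at or below the limit on all resistant arrays (at least 1.38-fold lower). All 7 probe sets of TERF1 had negative differences, from -1.38 to -0.20, and 2 of them were called. The 3 probe sets of E2F5 gave -0.60, -0.68 and -0.58, none of them called (lowest adjusted p = 0.0966). ATP6V1H gave -0.94 and -0.96, both called. ARFGEF1 was called in its bright probe set, while its dim one, above the limit on 2 sensitive and 2 resistant arrays, had 0.46 (adjusted p = 0.593). For the mean of both, the difference of ARFGEF1 was -0.66 (adjusted p = 0.0497). OSGIN2 was called in its brighter probe set, while the other, with 5 sensitive and 4 resistant arrays above the limit, had 886 ± 207 and 770 ± 423.6 (-0.29, adjusted p = 0.731). For the mean of both, OSGIN2 had -0.77 (adjusted p = 0.0253), and for the mean of its 7 probe sets TERF1 had -0.70 (adjusted p = 0.0114). MTDH had -0.25 in a second probe set (adjusted p = 0.72), and for the mean of its probe sets the call was lost (adjusted p = 0.0939). The 4 probe sets of RUNX1T1 lay between -0.12 and 0.24, with no array above the limit.

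**Figure D4:**
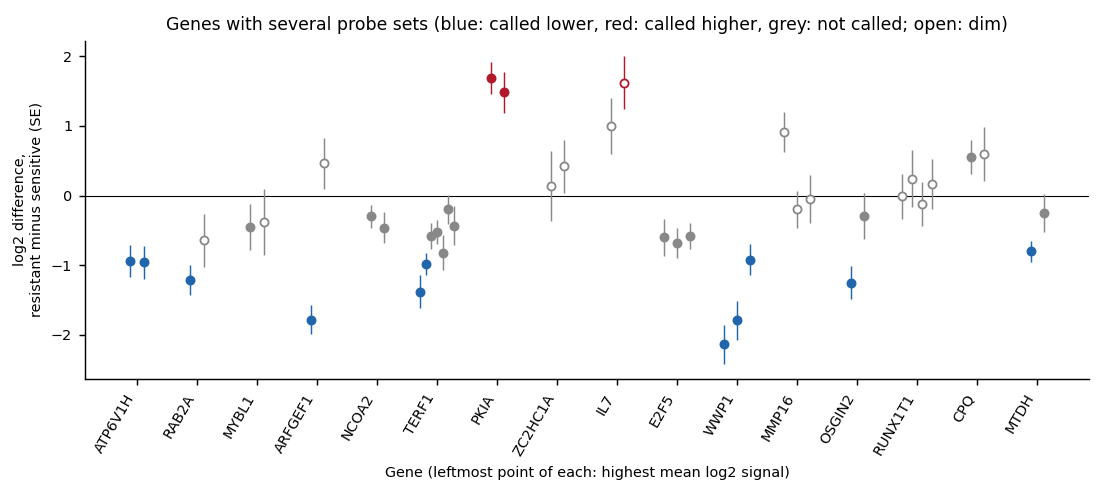
Log2 difference (resistant minus sensitive, with SE) of every probe set of the 16 members that have several; blue points are called lower, red called higher, grey not called, and open points are dim. Probe sets of WWP1, TERF1, E2F5 and ATP6V1H lie on the same side of 0, and the dim probe set of ARFGEF1 lies opposite its bright one.

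Beyond the interval, the next genes of chromosome 8 toward the end of the long arm included many lower calls, and those before the interval few. Of 87 genes with starts from 100 Mb on, 29 were called lower and 4 higher, with a median of -0.78 for the 60 whose mean signal exceeded the limit. Of these 60 differences 53 were negative. Of 116 genes with starts below 45 Mb, 4 were called lower and 8 higher, and the median of the 69 above the limit was 0.00, with 36 of the 69 negative. On the 22 other chromosomes (X among them) the medians of genes above the limit lay between -0.07 and 0.12, and between 1.04% and 5.83% of their genes were called lower. These are the same contrast that led to the choice of the interval and are given as a description.

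**Figure D5:**
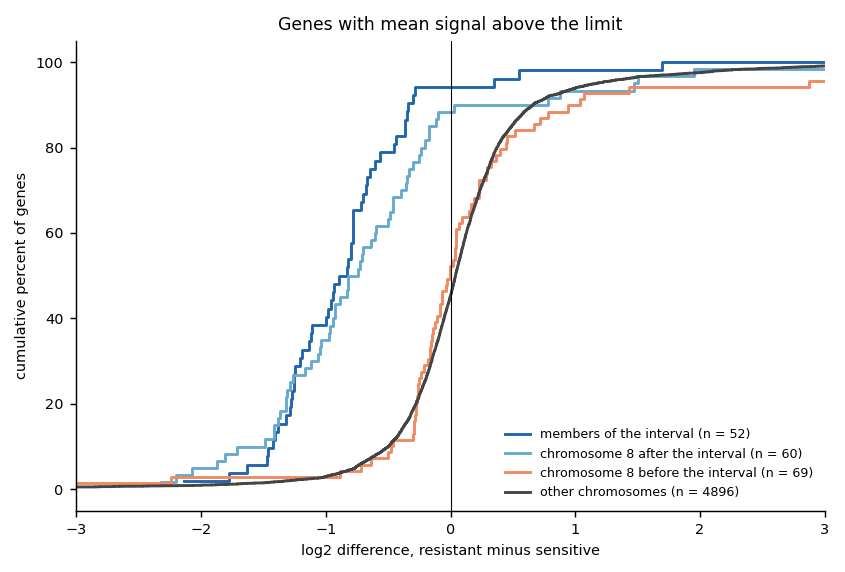
Cumulative percent of genes by log2 difference (resistant minus sensitive), for genes whose mean signal over 10 arrays exceeded the median limit; values beyond -3 and 3 are outside the axis. The curves of the 52 members and of the 60 genes after the interval lie to the left of those of the 69 genes before it and the 4896 on other chromosomes.

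The shift appeared on each resistant array. Relative to each gene's sensitive mean, the median over the 52 members with mean signal above the limit was -0.96, -0.95, -0.96, -0.86 and -0.80 on resistant replicates 1 to 5 and 0.12, 0.17, -0.01, -0.08 and -0.22 on sensitive replicates 1 to 5. The same median over genes of other chromosomes stayed between -0.04 and 0.09 on all 10 arrays. Among sensitive arrays, replicates 1 and 2 were the highest, as seen above for WWP1, ARFGEF1 and UQCRB. Genes of chromosome 8 after the interval had a similar order there, at 0.13, 0.13, 0.10, -0.04 and -0.18. On resistant replicates 1 to 5 they had -0.77, -0.86, -0.82, -0.60 and -0.61, so the shift was not particular to the interval. Genes of chromosome 8 before the interval had the opposite order on sensitive arrays, at -0.16, -0.13, -0.01, 0.23 and 0.20. The part of this spread in the results was not tested.

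As a check of the labelled cell type, the leukocyte gene PTPRC and the blood cell genes LYL1 and CD34 exceeded the limit on 3 or more arrays of both groups, and the myeloid genes SPI1 and ANPEP in sensitive arrays only. MPO and KIT were above it in fewer than 3 arrays of either group. Of 5 epithelial markers KRT8 and CDH1, and of 5 measured fibroblast markers LUM, exceeded it on 3 or more sensitive arrays, and of these KRT8 on 3 or more resistant arrays. KRT18, KRT19, EPCAM, COL1A2, COL3A1 and FAP were not above it on any array. Of 7 T and NK cell markers CD3E and NKG7 were above the limit in both groups, and of 4 B cell markers CD79A in sensitive and CD22 in resistant arrays. Of 5 measured erythroid markers KLF1, GATA1 and EPOR were above it in both groups and HBZ in sensitive arrays. The summed signal of the 5 erythroid markers was 4412 to 9584 on sensitive and 13388 to 18040 on resistant arrays, without overlap, and its part in the results above was not tested. The summed signal of the 7 measured leukocyte and myeloid markers overlapped, at 14268 to 20866 and 12830 to 20556.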

How the data were processed

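Signals of 10 one-colour Affymetrix arrays (5 sensitive, 5 resistant) were deposited by the authors as an intensity per probe set on a linear scale, made with MAS5 per the submitters' processing notes (version and settings: not given in the sources used here). On all arrays the 2% trimmed mean lay between 2501.33 and 2501.51. Of 12625 probe sets, 67 controls were left out. Gene symbols came from the platform annotation, brought up to date through Entrez identifiers with the RefSeq table of GRCh38.p14, which also gave gene order (10934 of 10943 with 1 symbol matched). Each array was scaled to the mean trimmed mean, and log2(signal + 114.8), where 114.8 is the 20th percentile of all signals, was fitted in R 4.3.3 with limma 3.58.1 (lmFit, eBayes), without covariates, on all 12558 probe sets with Benjamini-Hochberg adjustment. The fit was tested on simulated data. The members, function groups, partner lists and the detection limit were chosen with earlier results of these data known. All member genes could be named; all array values are given for the 8 largest falls and up to 4 rises among called members above the limit in 3 arrays of a group (1 met this), for the gene of highest signal in each function group, and for UQCRB, ELOC and POP1, which were added after their values were seen, as were the subunits of other chromosomes named beside members. The number of arrays limits the precision. Same-numbered arrays were checked for pairing and are treated as unpaired. Alternatives were other scalings, pseudocounts, filters, the replicate block, array weights, leaving out each array and averaging probe sets.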

Additional observations from a re-analysis of the deposited data

Results flagged for a closer look

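Among the 34 called members, 68 groups of 5 arrays were examined for an array far from the other 4, and 3 were found, where chance alone gives about 5% of groups. The gap to the nearest array, divided by the range of the group, had to exceed 0.71. MCM4 had a signal of 9094 on resistant replicate 2, against 5479 to 6247 on the other 4. SDCBP had 13640 on sensitive replicate 5, against 18794 to 20233. NSMAF had 6720 on resistant replicate 5, against 5602 to 5902. Without resistant replicate 2, sensitive replicate 5 or resistant replicate 5, in that order, these genes stayed called lower.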

How the results depend on the processing

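The 5 summary values were recomputed under up to 20 alternatives. Only the median has a sign, which stayed negative, while the counts have no direction that could change. The interval was chosen as lower in this same comparison, so the sign is a description. The count of member genes called lower (33) was 26 to 32 with 1 array left out, and that of member probe sets called lower (37) was 29 to 37. Member genes called higher (1) were 1 to 2 and member probe sets called higher (3) were 2 to 3 with 1 array left out; the second higher gene was TTPA without sensitive replicate 3 and MATN2 without resistant replicate 3. The higher genes were 2 when only probe sets above the limit in 3 arrays of a group were tested, with the replicate block, with array weights and for the mean of all probe sets of a gene, and the higher probe sets were 1 when only those with mean signal above the limit were tested. With only probe sets above the limit in 3 arrays of a group, the second higher gene was MATN2. It passed that filter through the resistant arrays alone (4 above the limit, against 0 sensitive). The median difference over member genes (-0.56) was -0.54 to -0.67 with 1 array left out. It became -0.70 with arrays scaled to a common median and -0.69 when centred on genes not on chromosome 8, settings that moved the median of all probe sets from 0.03 to -0.07 and -0.09, so that relative to it the members shifted by -0.63 and -0.59, against -0.59 in the reported fit. It was -0.72 with a pseudocount of 16 and -0.37 with a pseudocount of 500, and -0.82 and -0.86 over the members that passed the filter on arrays or on mean signal, where dim members are left out. Of 34 called genes 25 stayed called under all alternatives in which they were tested, 9 lost the call under at least 1, and 11 uncalled genes gained one. With the replicate number as a block, 27 genes were called lower and 2 higher, the median stayed at -0.56, and 28 of the 34 called genes kept their call; SDCBP (adjusted p = 0.0767), RALYL (adjusted p = 0.0527), COPS5, TRAM1, RIPK2 and STK3 lost it, and the second higher gene was MMP16 (adjusted p = 0.0419). Of the 3 probe sets of MMP16 the other 2 had negative differences in the reported fit. The same-numbered arrays correlated by 0.0365 to 0.229 after removal of group means. Sensitive replicates 1, 3 and 5 correlated best with the resistant array of their own number. Sensitive replicates 2 and 4 correlated best with resistant replicates 1 and 5. Whether arrays of the same number share a batch was not tested. Dim members limit the account: 25 of 89 genes were not above the limit on any array.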
